A study of Mus musculus with 8 samples.

Results

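Ifitm1, Ifitm2, Ifitm3 and Ifitm6 are interferon-induced transmembrane protein (IFITM) genes, and their RNA was followed across normal-looking mucosa and tumours of mice with and without the protease inhibitor HAI-1. The 4 genes were chosen from the measured values themselves, because they were higher in HAI-1 deficient non-tumour mucosa, where many other interferon-induced genes were lower. Every probe set that the platform annotation assigns to 1 of these genes alone was then taken, which gave 1 probe set for each gene and 4 in all, out of 18194 genes on the array that have such a probe set. The rule fixes that comparison in non-tumour mucosa, so it is described with no test. The other comparisons are tested only where they do not use the same difference.

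The 8 samples came from small intestine of C57BL/6 mice fed the AIN-76 diet, in 4 groups of 2 arrays each. Every mouse carried the Min mutation on 1 copy of Apc, the tumour suppressor that keeps Wnt signalling in check, so tumours formed in the controls as well. Both copies of Spint1, the gene for HAI-1, were flanked by loxP sites in every group. The control genotype was Apc (Min/+)/Spint1 (flox/flox), and the HAI-1 deficient genotype was Apc (Min/+)/Spint1 (flox/flox)/Vil-Cre. From each genotype there was non-tumour small intestinal mucosa and tumour of the small intestine. Cre was driven by the villin promoter, which acts in intestinal epithelium, so stromal and immune cells in the tissue kept intact Spint1. The labels give no age, and they leave unstated whether each array is a separate mouse and whether mucosa and tumour were taken from the same animals. The p-values therefore measure only the spread between these samples, which may be technical.

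IFITM proteins are small membrane proteins of the CD225 family that sit in the plasma membrane and in endosomes and hinder the fusion of enveloped viruses with the cell. Their genes lie in a cluster, and several are induced by type I and type II interferon through response elements near the start of transcription. Some members are also made without interferon in stem cells, germ cells and epithelial tumours, and IFITM genes have been described as targets of Wnt and beta-catenin signalling in intestinal neoplasia. HAI-1 is a Kunitz-type inhibitor on the epithelial surface that restrains membrane serine proteases such as matriptase and the activator of hepatocyte growth factor.

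The sequences before the start sites are shown because the comparison sets these genes against other interferon-induced genes, which share short response elements. RefSeq promoter windows of build GRCm38.p6 were found for 4 of the 4 genes, all on chromosome 7, each with 250 bases before and 50 bases after the annotated start. The 250 bases before the start are printed 5′ to 3′ on the strand of the gene for Ifitm1 (chr7:140967826-140968075, plus strand), Ifitm2 (chr7:140955962-140956211, minus strand) and Ifitm3 (chr7:141010745-141010994, minus strand). A 30-base stretch just after the Ifitm3 start (chr7:141010714-141010743, minus strand), where its matches lie, follows. Capitals mark matches to the core of the interferon-stimulated response element, GAAANNGAAA.
Ifitm1: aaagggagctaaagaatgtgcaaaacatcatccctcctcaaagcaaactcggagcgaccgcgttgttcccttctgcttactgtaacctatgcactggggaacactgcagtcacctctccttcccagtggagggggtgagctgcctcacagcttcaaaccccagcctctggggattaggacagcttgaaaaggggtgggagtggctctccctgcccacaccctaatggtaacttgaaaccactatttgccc
Ifitm2: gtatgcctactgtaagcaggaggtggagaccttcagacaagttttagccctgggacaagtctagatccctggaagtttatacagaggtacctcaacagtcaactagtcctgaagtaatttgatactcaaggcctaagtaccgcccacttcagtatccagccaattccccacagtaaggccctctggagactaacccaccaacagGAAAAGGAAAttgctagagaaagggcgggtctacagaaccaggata
Ifitm3: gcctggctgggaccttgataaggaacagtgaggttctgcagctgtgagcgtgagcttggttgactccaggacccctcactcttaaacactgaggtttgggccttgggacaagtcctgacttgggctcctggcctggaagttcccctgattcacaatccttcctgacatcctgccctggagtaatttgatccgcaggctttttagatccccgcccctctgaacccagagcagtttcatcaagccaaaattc
Ifitm3 after the start: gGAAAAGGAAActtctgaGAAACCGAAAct

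The response element core was searched on both strands of the 300-base windows. It was found in 3.44% of 32841 windows in the RefSeq table. Ifitm2 had 1 match, from base -46 to base -37 relative to the start. Ifitm3 had 2 matches, from base 3 to base 12 and from base 20 to base 29 after the start. Neither Ifitm1 nor Ifitm6 had a match, which says only that these letters are not in their windows. Among the antiviral interferon-induced genes described below, 12 of 21 genes with a window held a match (57.1%), against 3.99% of 27018 genes with a window. The core of the gamma-activated site, TTCNNNGAA, reads the same on both strands and was present in 8.3% of windows. It was found in Ifitm3 from base 14 to base 22, overlapping the second response element match, and in Ifitm6 from base -10 to base -2. The core bound by TCF/LEF, the factors that act with beta-catenin, is CTTTGA followed by A or T and was present in 8.65% of windows. Ifitm6 held 1 such match, from base -172 to base -166, and the windows of Ifitm1, Ifitm2 and Ifitm3 held none. Of the Wnt target genes described below, 3 of 18 with a window held the TCF/LEF core (16.7%), against 9.88% of all genes with a window. A match here describes letters in a window and nothing about binding.

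The labels were checked first against Spint1. Its log2 signal was 12.87 and 13.002 in control mucosa, 12.46 and 12.25 in HAI-1 deficient mucosa, 12.75 and 13.06 in control tumours, and 11.76 and 11.84 in HAI-1 deficient tumours. Both deficient groups lay below both control groups with no overlap, but the difference was -0.58 ± 0.24 in mucosa (SE of the fit; limma adjusted p = 0.271) and -1.10 ± 0.24 in tumours (limma adjusted p = 0.779), so neither passed the test. The sources used here do not place the Spint1 probe set inside or outside the deleted part, and other cells of the tissue keep the gene. The defining markers of epithelium were high in all groups, with summed linear signals of 167800 to 195500 in mucosa and 176300 to 192000 in tumours over 9 genes. Arrays of the same group correlated at 0.947 to 0.968 over the genes tested, and arrays of different groups at 0.830 to 0.976. Added poly-A spike-in RNA read high on 3 arrays (8.12 to 8.51 in mean log2), the second array of control mucosa, of deficient mucosa and of deficient tumours, and 6.36 to 7.12 on the other 5. The second control tumour array stood apart in its Gapdh 3′ to 5′ ratio, at 25.9, where the remaining arrays read 0.803 to 1.77. Values within the spike-in classes are given beside the results.

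Ifitm1 encodes a member found mainly at the cell surface. On the log2 scale, control mucosa read 10.43 and 10.32 and HAI-1 deficient mucosa 12.37 and 12.70. In tumours it was 13.70 and 13.34 in controls and 13.64 and 14.15 in HAI-1 deficient mice. The 2 control mucosa arrays were lowest, the deficient mucosa arrays lay apart above them, and all 4 tumour arrays were higher still, with the tumour groups overlapping.

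Ifitm2 encodes a member found mainly in endosomes. It read 10.28 and 9.90 in control mucosa and 12.11 and 11.75 in deficient mucosa on the log2 scale. Tumour signals were 13.54 and 13.21 in controls and 13.56 and 12.83 in deficient mice. The order was again control mucosa, deficient mucosa, tumours, and the 2 tumour groups overlapped.

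Ifitm3 encodes the endosomal member best known for restricting influenza virus. Its log2 signal was 11.31 and 11.02 in control mucosa and 12.90 and 12.86 in deficient mucosa. In tumours it was 14.27 and 14.18 in controls and 14.27 and 13.92 in deficient mice. No mucosa array reached a tumour array, and the tumour groups overlapped.

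Ifitm6 is a rodent member that is less well characterised than the others. Its log2 signal was 6.06 and 5.38 in control mucosa and 6.75 and 6.45 in deficient mucosa. It was 7.59 and 6.94 in control tumours and 6.87 and 6.77 in deficient tumours. On the linear scale these signals ran from 41.5 to 193, and the lowest was close to the filter value of 36.8 below which probe sets were left out. The mucosa groups did not overlap, the lowest tumour array stood only 0.024 above the highest deficient mucosa array, and both deficient tumour arrays lay below both control tumour arrays, by 0.063 at the nearest. Signals of different probe sets cannot be compared with each other, so no order among the genes is given.

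**Figure D1:**
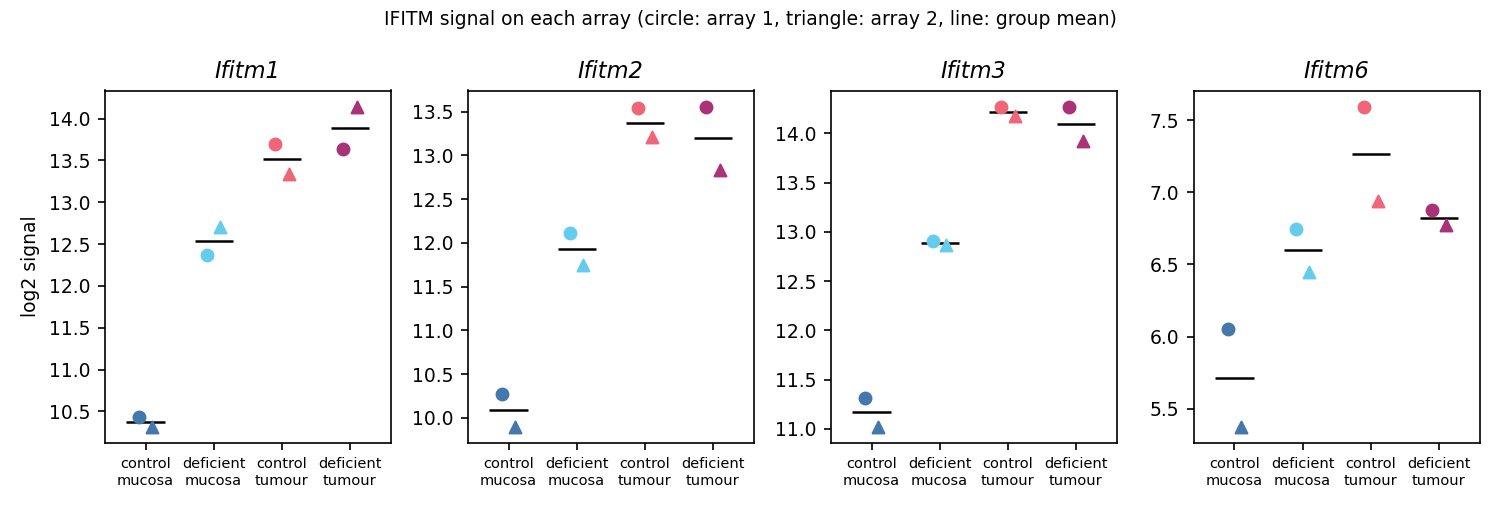
Log2 signal of Ifitm1, Ifitm2, Ifitm3 and Ifitm6 on each of the 8 arrays, by group; circles are array 1, triangles array 2 and lines the group means, and each panel has its own axis. In each panel the 2 control mucosa arrays are lowest, for example 10.43 and 10.32 for Ifitm1, and the 4 tumour arrays lie above both mucosa groups.

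In non-tumour mucosa the values that chose the genes were as follows. Ifitm1 was 2.16 ± 0.28 higher in HAI-1 deficient mice on the log2 scale (SE of the fit, 2 arrays against 2), which is 4.48-fold. The difference was 1.84 ± 0.33 for Ifitm2 (3.58-fold) and 1.72 ± 0.25 for Ifitm3 (3.29-fold). Ifitm6 differed least, by 0.88 ± 0.34 (1.84-fold). The gap between the nearest arrays of the 2 groups was 1.94 for Ifitm1, 1.47 for Ifitm2, 1.55 for Ifitm3 and 0.39 for Ifitm6. Over all 13119 genes tested, 0.899% were called higher and 0.152% lower in this comparison at a limma adjusted p under 0.05. Because the comparison chose the genes, nothing is read from these shares. Between the first arrays of the mucosa groups, both with low spike-in signal, the differences were 1.94, 1.84, 1.59 and 0.69 in the order Ifitm1, Ifitm2, Ifitm3 and Ifitm6. Between the second arrays, both with high spike-in signal, they were 2.38, 1.85, 1.84 and 1.07. The direction was therefore the same within each class.

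Whether loss of HAI-1 also went with a difference in tumours was tested on the tumour arrays, which the mucosa comparison in the rule does not use. The genes were chosen with earlier results of these data known, so the test may not be free of that choice. None of the 4 genes passed the test. Ifitm1 was 0.37 ± 0.28 higher in deficient tumours (95% interval -0.29 to 1.04; limma adjusted p = 0.784). Ifitm2 differed by -0.18 ± 0.33 (-0.94 to 0.59; limma adjusted p = 0.903) and Ifitm3 by -0.12 ± 0.25 (-0.70 to 0.46; limma adjusted p = 0.910). Ifitm6 differed by -0.44 ± 0.34 (-1.23 to 0.34; limma adjusted p = 0.784). Over all genes tested, 0% were called higher and 0% lower by limma in tumours, although 802 of 13119 had an unadjusted p under 0.05, so the share called says nothing particular about these genes. Among the 3 tumour arrays with low spike-in signal, the difference was 0.12 for Ifitm1, 0.19 for Ifitm2, 0.051 for Ifitm3 and -0.39 for Ifitm6. That set leaves out the second deficient tumour array, and Ifitm2 and Ifitm3 changed sign without it. Leaving out the first control tumour array raised the count over all genes from 0 to 7.

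Tumours were compared with non-tumour mucosa as an average over both genotypes, which is independent of the mucosa difference in the rule in this balanced design. Here too the genes were chosen with earlier results of these data known. All 4 genes were called higher in tumours in this average. Ifitm1 rose by 2.25 ± 0.20 on the log2 scale, or 4.76-fold (limma adjusted p = 0.000643). Ifitm2 rose by 2.27 ± 0.23, or 4.84-fold (limma adjusted p = 0.000908), and Ifitm3 by 2.13 ± 0.18, or 4.39-fold (limma adjusted p = 0.000594). For these 3 genes the lowest tumour array was above the highest mucosa array, by 0.64 for Ifitm1, 0.72 for Ifitm2 and 1.02 for Ifitm3. How many of all genes tested show such a gap is not given, so nothing is read from it. Ifitm6 rose by 0.89 ± 0.24, or 1.85-fold (limma adjusted p = 0.0241). Over all genes, 25.7% were called higher and 10.1% lower in tumours, with a median difference of 0.20, so a call in this comparison is common.

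The call for Ifitm6 depended on single arrays. It was lost when the second control mucosa array, the first control tumour array, the second deficient mucosa array or either deficient tumour array was left out, with differences of 0.72 to 0.91 and limma adjusted p up to 0.0743 in those fits. It was also lost when no filter on low signals was applied (limma adjusted p = 0.0609). The calls for Ifitm1, Ifitm2 and Ifitm3 held under each of 17 alternative settings, though the setting with only the groups compared repeats the main fit here. Among the 5 arrays with low spike-in signal the tumour difference averaged over genotypes was 2.18, 2.27, 2.14 and 0.67 for Ifitm1, Ifitm2, Ifitm3 and Ifitm6.

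**Figure D2:**
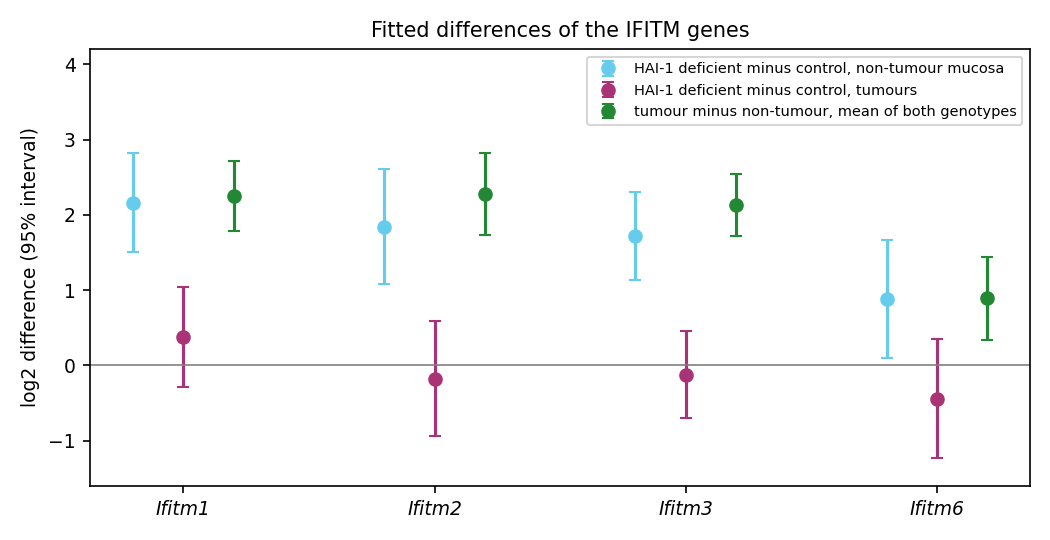
Fitted log2 differences of the 4 genes with 95% intervals from the limma fit to 8 arrays, for HAI-1 deficient minus control mice in mucosa and in tumours, and for tumour minus non-tumour tissue averaged over genotypes. The mucosa values, which chose the genes, are shown as a description; the tumour values for HAI-1 loss span 0 for all 4 genes, and the tissue values run from 0.89 for Ifitm6 to 2.27 for Ifitm2.

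Within each genotype the tumour difference is a description, since it uses the mucosa arrays that chose the genes. In control mice tumours exceeded mucosa by 3.14 for Ifitm1, 3.28 for Ifitm2, 3.05 for Ifitm3 and 1.55 for Ifitm6. In HAI-1 deficient mice the same differences were 1.36, 1.27, 1.21 and 0.23. That of Ifitm6 had an SE of 0.34 and a 95% interval of -0.56 to 1.01, which spans 0. The HAI-1 difference in tumours minus that in mucosa was -1.79 for Ifitm1, -2.02 for Ifitm2, -1.84 for Ifitm3 and -1.32 for Ifitm6. Deficient mucosa thus lay between control mucosa and tumours for each gene.

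Other IFITM and CD225 genes were looked at from a list of 9 genes, of which 7 had a single-gene probe set and 3 passed the filter on low signals. Ifitm5, the bone-restricted member at the end of the same cluster, read 2.70 and 3.56 in control mucosa and 5.52 and 6.06 in deficient mucosa. Its tumour signals were 6.34 and 6.33 in controls and 5.64 and 7.12 in deficient mice. The control mucosa signals lie under the filter value of 5.20 on the log2 scale, and the gene passed the filter only through the groups where it was higher, so no difference or test is given for it. Ifitm10, a distant member elsewhere on chromosome 7, read 5.66 and 5.47 in control mucosa and 5.50 and 5.36 in deficient mucosa. Its tumour difference was 0.11 ± 0.50 (limma adjusted p = 0.880). Trarg1, a CD225 protein of fat cells that takes part in glucose transporter traffic, did not pass the test in tumours either (0.41 ± 0.46; limma adjusted p = 0.530). Ifitm7, on chromosome 16, did not pass the filter. No gene of this list was called for HAI-1 loss in tumours.

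Genes that modify IFITM proteins or bind them were measured for 12 of 13 listed. None was called for HAI-1 loss in mucosa or in tumours, with medians of 0.08 and -0.01. In tumours against mucosa 3 were called higher and 1 lower, with a median of 0.22 beside 0.20 over all genes. Over all genes 25.7% were called higher and 10.1% lower, so these counts are near the background and say nothing particular about the list. Cd9, a tetraspanin of the web in which IFITM1 is found, rose by 2.26 ± 0.20 (limma adjusted p = 0.000643). Its log2 signal was 9.79 and 10.30 in control mucosa, 11.26 and 11.71 in deficient mucosa, 12.91 and 13.04 in control tumours, and 13.08 and 13.09 in deficient tumours. These arrays fell in the order seen for the IFITM genes, with tumours highest. Zdhhc15, a palmitoyltransferase, rose by 1.59 ± 0.30, and Nedd4, a ubiquitin ligase that marks IFITM3 for turnover, by 1.39 ± 0.18. Zdhhc7, another palmitoyltransferase, fell by 0.75 on the log2 scale.

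The list of antiviral interferon-induced genes held 32 symbols, with Ddx58 and Rigi both naming RIG-I. Of these, 28 had a single-gene probe set and 27 were tested. In non-tumour mucosa 26 of the 27 were lower in HAI-1 deficient mice and 7 were called lower and none higher, with a median of -2.01 beside 0.11 over all genes. Over all genes 0.152% were called lower and 0.899% higher. This contrast belongs to the choice of the IFITM genes, so the counts here and for the other lists in mucosa are a description and nothing is read from them. Ifit1, a binder of viral RNA, had log2 signals of 11.35 and 11.09 in control mucosa and 8.43 and 7.74 in deficient mucosa, a difference of -3.13 ± 0.50 where the IFITM genes were higher. The other genes with the largest differences were Oas3, a sensor of double-stranded RNA (-4.62 ± 0.59), Usp18, which removes ISG15 from proteins (-3.31 ± 0.49), and Herc6, the ISG15 ligase of mice (-3.30 ± 0.45). Isg20, an exonuclease, was the only one with a positive difference (0.48 ± 0.26).

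In tumours none of the antiviral genes was called for HAI-1 loss, and their median difference was -1.20 beside -0.01 over all genes, with 24 of 27 negative. Ifit1 read 10.66 and 11.53 in control tumours and 8.71 and 7.42 in deficient tumours, a difference of -3.03 ± 0.50 (limma adjusted p = 0.779). The IFITM genes in the same tumours differed by 0.37 to -0.44. Usp18 differed by -2.46 ± 0.49 and Rsad2, the antiviral enzyme viperin, by -2.65 ± 0.63, both with a limma adjusted p of 0.779.

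Between tumours and mucosa 2 antiviral genes were called higher, 4 lower and 21 not called, with a median of -0.17. Over all genes 25.7% were called higher and 10.1% lower, so the 4 lower are near the background and nothing is read from that count. Isg20 rose by 1.39 ± 0.18 (limma adjusted p = 0.0019). Its log2 signal was 6.96 and 7.11 in control mucosa, 7.37 and 7.66 in deficient mucosa, 8.75 and 8.52 in control tumours, and 8.86 and 8.51 in deficient tumours. Isg20 therefore followed the group order of the IFITM genes. Ifit2 rose by 1.87 ± 0.51 (limma adjusted p = 0.0265), though 1 deficient mucosa array read 3.69, under the filter value, and the other 6.24. The 4 that fell were Parp14 and Parp9, both ADP-ribosyltransferase family members, Ddx58, the viral RNA sensor RIG-I, and Ifi35, with differences of -1.02, -0.68, -0.76 and -0.68.

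Genes induced mainly by interferon-gamma were measured for 18 of 19 listed. In non-tumour mucosa 17 of 18 were lower with HAI-1 loss. Of these 2 were called lower, where 0.152% of all genes were called lower and 0.899% higher. They were Ubd (-4.90 ± 0.47), a ubiquitin-like modifier, and Ido1 (-3.53 ± 0.49), which breaks down tryptophan. In tumours none was called for HAI-1 loss and the median was -0.85. Between tumours and mucosa 8 were called lower and none higher, with a median of -0.78. Over all genes 10.1% were called lower and 25.7% higher. Ubd read 11.53 and 11.10 in control mucosa but 6.93 and 5.91 in deficient mucosa, 7.36 and 6.78 in control tumours, and 6.40 and 5.38 in deficient tumours. Control mucosa was the highest group for Ubd and the lowest for each IFITM gene. The largest falls in tumours after Ubd (-2.39) were of Igtp, a GTPase that guards against intracellular parasites (-1.98), Ciita, the regulator of MHC class II (-1.58), and Psmb9, an immunoproteasome subunit (-1.49).

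Of 8 interferon ligand genes, 5 had a single-gene probe set and 2 were tested, and none was called in the 3 comparisons. Receptors, STATs and interferon regulatory factors were tested for 15 of 16 listed genes. None was called for HAI-1 loss, with medians of -0.36 in mucosa and -0.04 in tumours. Ifnar1, a chain of the type I interferon receptor, read 9.01 and 9.29 in control mucosa and 9.38 and 9.47 in deficient mucosa, and 9.05 to 9.31 in tumours, so it lay within a narrow range across the groups. Ifngr1, the ligand-binding chain of the interferon-gamma receptor, differed by 0.63 ± 0.26 in mucosa (limma adjusted p = 0.265). In tumours against mucosa 10.1% of all genes were called lower and 25.7% higher. Of the 15 genes of this list, 4 were called lower and none higher. These were Ifngr2, the signalling chain of the interferon-gamma receptor (-1.28 ± 0.40), Il10rb (-1.21 ± 0.19) and Ifnlr1 (-0.81 ± 0.17), the chains of the interferon-lambda receptor, and Jak2, a kinase of the pathway (-0.77 ± 0.18).

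Wnt and beta-catenin target genes, with the IFITM genes left out, were tested for 24 of 27 listed. In non-tumour mucosa 24 of 24 had a positive difference with HAI-1 loss, with a median of 1.14 beside 0.11 over all genes. There 0.899% of all genes were called higher and 0.152% lower, and 1 gene of the list was called higher. This was Notum, a secreted inhibitor of Wnt, at 2.33 ± 0.31. In tumours none was called for HAI-1 loss and the median was 0.28. Between tumours and mucosa 21 of 24 were called higher and none lower, with a median of 1.83 beside 0.20 over all genes. Over all genes 25.7% were called higher and 10.1% lower. This list, like the others, was written with earlier results of these data known, so its share is only a description. Lgr5, a receptor of crypt stem cells, rose by 3.02 ± 0.34, Nkd1, a feedback inhibitor, by 3.02 ± 0.46, and Sox9, a transcription factor of the crypt, by 2.80 ± 0.30. Notum rose by 2.68 ± 0.22, and its log2 signal was 7.72 and 7.21 in control mucosa, 9.67 and 9.94 in deficient mucosa, 11.50 and 11.24 in control tumours, and 10.96 and 11.55 in deficient tumours. The groups of Notum stood in the order seen for Ifitm1, Ifitm2 and Ifitm3. Wnt6, Sp5 and Wif1 did not pass the test in this comparison.

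**Figure D3:**
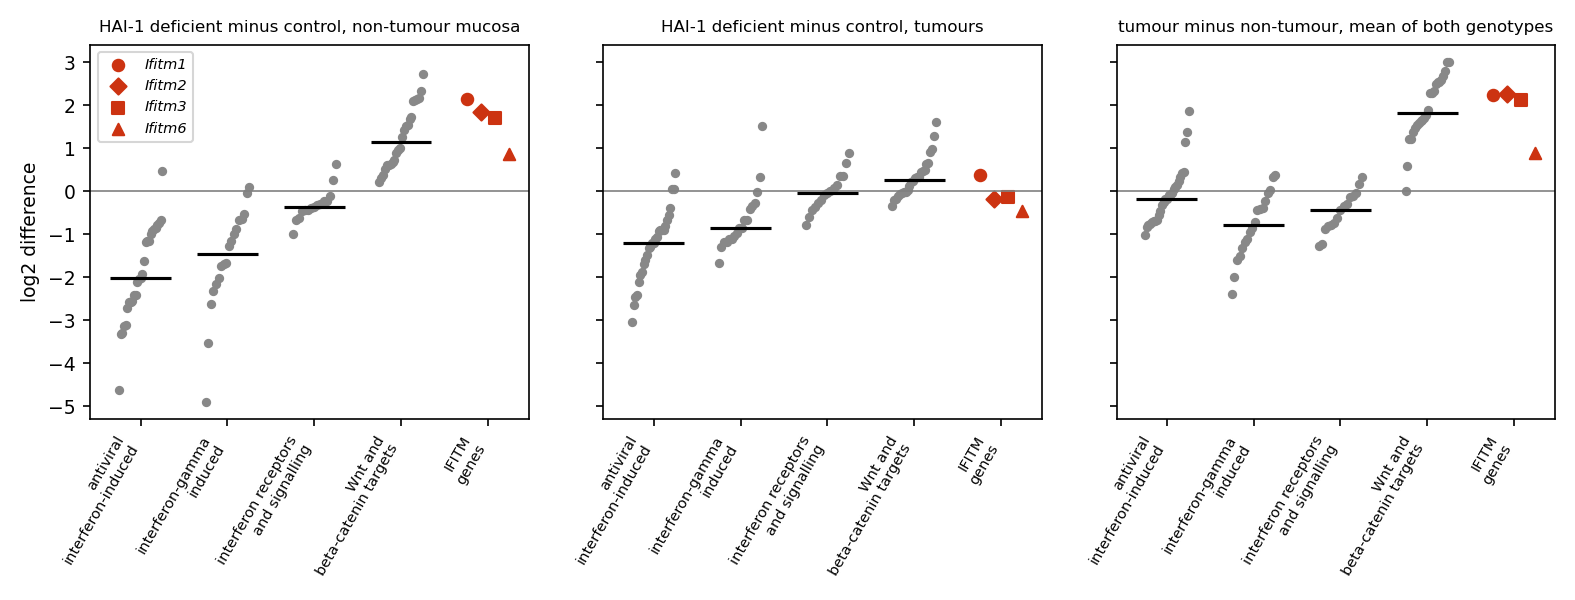
Log2 differences in 3 comparisons for the tested genes of 4 gene lists (grey points, 1 per gene; black lines, medians) and for the 4 IFITM genes (red). In mucosa the antiviral list has a median of -2.01 and the Wnt target list 1.14, while the IFITM genes lie between 0.88 and 2.16; in the tissue comparison the Wnt list has a median of 1.83 and the antiviral list -0.17.

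The likeness of other genes to each IFITM gene was described by Pearson's r over the 8 arrays, as a description: the points share 4 groups and their libraries, and no test is attached. The mucosa arrays on which the genes were chosen are among the 8, so a negative r with antiviral genes is partly built in by that choice. The same holds for a positive r with any gene that was higher in deficient mucosa. Ifitm2 and Ifitm3 were most alike among the 4 genes (r = 0.995), and each stood at rank 2 of all tested genes for the other. Their sequences are near-identical in parts, and whether their probe sets pick up each other's RNA was not tested. Ifitm1 had r of 0.951 with Ifitm2 and 0.971 with Ifitm3. Ifitm6 was least like the others, with r from 0.855 for Ifitm1 to 0.922 for Ifitm2.

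Against the lists, the median r of the 27 antiviral genes was -0.595 for Ifitm1, -0.415 for Ifitm2, -0.437 for Ifitm3 and -0.319 for Ifitm6, where the medians over all tested genes lay between 0.294 and 0.324. Isg20 stood apart from its list, with r of 0.909, 0.938, 0.945 and 0.798 in the same order of genes. For the 18 interferon-gamma induced genes the medians were -0.762, -0.637, -0.652 and -0.565. For the 24 Wnt targets they were 0.918, 0.873, 0.898 and 0.729. There r was positive for 24 of 24 genes with Ifitm1, Ifitm2 and Ifitm3 and for 23 with Ifitm6. Values of this size were not confined to the Wnt list, though the medians over all tested genes were far lower. For Ifitm1, the r of 0.855 with Ifitm6 stood only at rank 2167, and that of 0.951 with Ifitm2 at rank 525. Cd9 had r of 0.967 with Ifitm1 and 0.972 with Ifitm3. The 27 antiviral genes had a mean log2 signal of 9.93 and 9.96 in control mucosa, 8.22 and 7.88 in deficient mucosa, 9.48 and 9.62 in control tumours, and 8.80 and 7.79 in deficient tumours. This mean did not overlap between the genotypes in either tissue, though none of the 27 genes was called for HAI-1 loss in tumours. The share of all genes without such overlap is not given, so nothing is read from it.

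**Figure D4:**
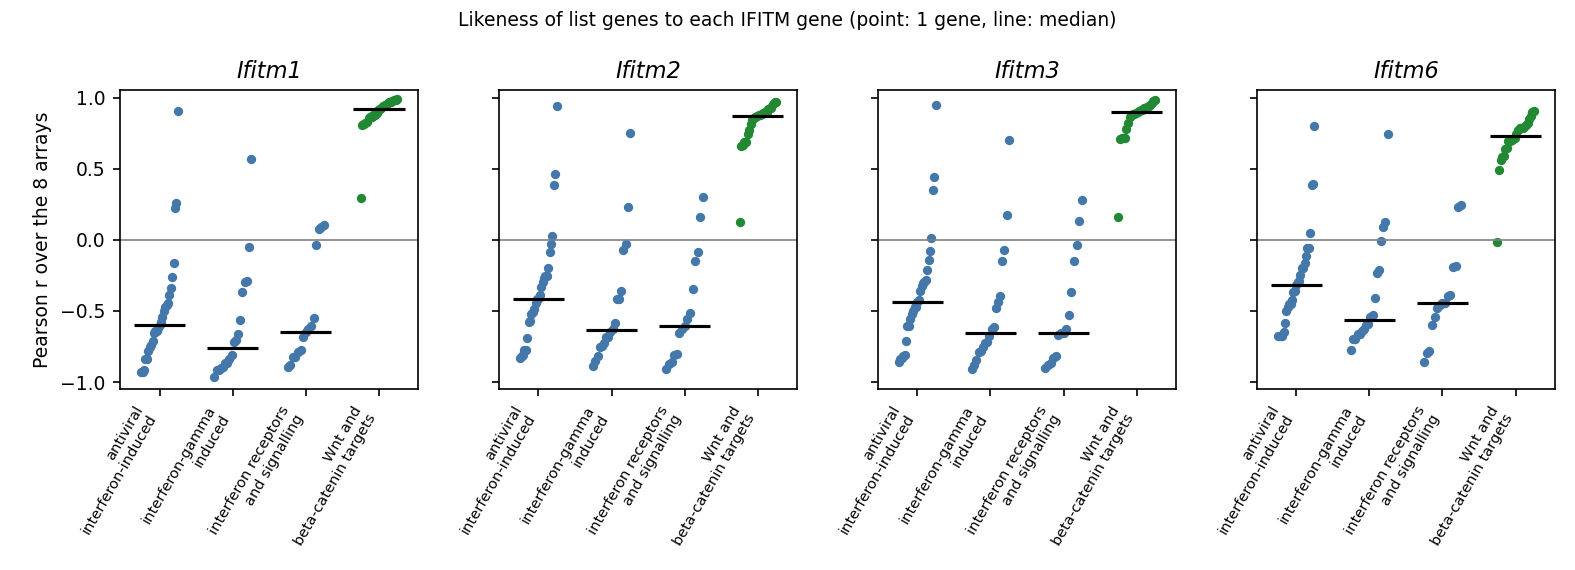
Pearson's r over the 8 arrays between each IFITM gene (1 panel each) and the tested genes of 4 lists; each point is a gene and each line the list's median. The interferon lists lie mostly below 0, with an antiviral median of -0.595 for Ifitm1, and the Wnt targets mostly near the top, with a median of 0.918.

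Over all 13115 other tested genes, those most like Ifitm1 were Msrb3, a methionine sulfoxide reductase (r = 0.996), Bvht, a long non-coding RNA, Krt23, a keratin, Spred1, an inhibitor of Ras signalling, and Mrps17, a mitochondrial ribosomal protein. Krt23 read 9.21 and 9.02 in control mucosa, 11.01 and 11.04 in deficient mucosa, 12.20 and 11.79 in control tumours, and 11.75 and 12.38 in deficient tumours. Most like Ifitm2 were Adgrg1, an adhesion receptor (r = 0.996), Scmh1, a Polycomb protein, Aldh1a2, an enzyme of retinoic acid synthesis, Nip7 and Celsr2. Most like Ifitm3 were Scmh1 (r = 0.997), Top1mt, a mitochondrial topoisomerase, Mboat1, Celsr2 and Adgrg1, so Scmh1, Celsr2 and Adgrg1 appeared for both. Most like Ifitm6 were Nos3, the endothelial nitric oxide synthase (r = 0.974), Il1a, an inflammatory cytokine, Sumf2, Fgf7, a fibroblast growth factor, and Dab2. None of the 5 genes nearest to Ifitm6 was among those nearest to the other 3.

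In the RefSeq gene table the cluster runs in the order Ifitm5, Ifitm2, Ifitm1, Gm7514, Gm33504, Ifitm3 and Ifitm6, and the 3 genes on either side were examined. Nlrp6, an inflammasome sensor of the gut epithelium, fell in tumours by 1.02 on the log2 scale (limma adjusted p = 0.0145). Pgghg, a glycosidase acting on collagen-linked sugars, rose by 1.15 ± 0.19 (limma adjusted p = 0.00422). On the other side B4galnt4, a glycosyltransferase, differed by 0.38 (limma adjusted p = 0.309) and Pkp3, the desmosomal protein plakophilin 3, by -0.06 (limma adjusted p = 0.849). With HAI-1 loss in mucosa the differences were -0.26 for Nlrp6, -0.14 for Pgghg, 0.74 for B4galnt4 and 0.47 for Pkp3, and none passed the test. BC024386 and Gm39114 had no single-gene probe set.

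Markers of other cell types moved with the same groups, and in bulk tissue fewer cells of a type cannot be told apart from less RNA per cell. The counts called below stand beside 25.7% higher and 10.1% lower over all genes in tumours against mucosa, and those of epithelial and of monocyte and macrophage markers are near these shares. Fibroblast markers rose in tumours for 10 of 10 genes, with a median of 3.05, and their summed linear signal was 2374 to 2656 in control mucosa, 4642 to 6194 in deficient mucosa, 29740 to 31860 in control tumours and 21390 to 21620 in deficient tumours. Endothelial markers rose for 4 of 8, and their sum was 571.3 to 699.6, 1495 to 1929, 1994 to 3053 and 2283 to 3878 in the same order of groups. Both sums were lowest in control mucosa, but the fibroblast markers did not all move with theirs. For HAI-1 loss in mucosa 6 fibroblast markers had positive differences and 4 negative ones (Lum -1.37, Dpt -0.46, Postn -0.41 and Thy1 -0.25), and none was called. Of the endothelial markers 7 had positive differences there and 1 a negative one, and 1 (Tek) was called higher. Smooth muscle markers were positive for 6 of 6 and neutrophil markers for 6 of 6, with none called. The other way went T and NK cell markers, negative for 8 of 8, and mast cell markers, negative for 5 of 6, with none called. In tumours smooth muscle markers rose for 6 of 6 and mast cell markers for 6 of 6. In control mucosa 1 of 6 smooth muscle markers read under the filter value on both arrays. In deficient mucosa so did 2 of 10 fibroblast markers and 3 of the 7 mast cell markers with a probe set. A tested marker of this kind passed the filter through the groups where it was higher, so nothing is read from the counts of these lists. Neutrophil markers rose for 3 of 6, and their sum was 392.7 to 652.4, 820.6 to 2289, 3314 to 5450 and 1869 to 2294. S100a8, a calcium-binding protein of neutrophils, read 6.74 and 5.11 in control mucosa, 9.81 and 7.06 in deficient mucosa, 11.20 and 10.36 in control tumours, and 9.52 and 9.36 in deficient tumours. Like Ifitm6, S100a8 was highest in control tumours. Monocyte and macrophage markers rose for 3 of 12 and fell for 1, and their sum ran only from 34170 to 41990 over all groups. T and NK cell markers fell for 6 of 8, from a sum of 20250 to 21490 in control mucosa to 7459 to 9514 in deficient mucosa, 8888 to 10960 in control tumours and 2922 to 5185 in deficient tumours. Enterocyte markers fell in tumours for 4 of 9, epithelial markers rose for 2 and fell for 2 of 9, and none of 5 B and plasma cell markers was called. No marker gene stood at the lowest value on both arrays of a group. The part of these cell types in the IFITM differences was not tested.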

How the data were processed

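RNA from 8 samples was labelled in a single cycle and hybridised to Affymetrix mouse arrays, 1 channel each. The authors deposited 1 value per probe set and array on the log2 scale for 45101 probe sets. Per the submitters' processing notes MAS5 and RMA were named, with no version or role. The deposited values are of the MAS5 kind: the linear mean with 2% of probe sets trimmed at either end was 500.003 to 500.004 on every array, and between 313 and 762 probe sets had the lowest value of 0, depending on the array. Detection calls were not used here, so signal over background is unknown, and the number of arrays limits the precision. No further scaling was applied.

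Probe sets listed for 1 gene in the platform annotation (34958; 932 listed several genes and 9211 none) were kept when their mean passed the 40th percentile (5.20), and the brightest represented its gene. Of 18194 genes, 13119 were tested in 1 linear model with 4 group means across all genes in limma 3.58.1 (R 4.3.3), two-sided, with Benjamini-Hochberg adjustment and a threshold of 0.05. The fit had 4 residual and 3.52 prior degrees of freedom and was tested on simulated data. Tumour against mucosa (averaged over genotypes) and HAI-1 loss in tumours were tested for the 4 genes; the other contrasts are descriptions. Figures were drawn with matplotlib 3.10.9 (Python 3.11.15).

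The members and lists were chosen with earlier results of these data known. Named genes are the 4 members, Spint1, up to 4 called genes of each list in each direction (or up to 3 with the smallest p), the 5 genes most like each member and 3 cluster neighbours on either side; genes shown by array were added as examples. Alternatives were quantile normalization, no filter or the 60th percentile, a mean-variance trend, the mean of a gene's probe sets, all probe sets, a replicate block, only the groups compared, a spike-in term and leaving out each array. Promoter windows are from RefSeq (GRCm38.p6). Protein sequences were not used here.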

Additional observations from a re-analysis of the deposited data

Results flagged for a closer look

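Ifitm6 was higher on both HAI-1 deficient arrays than on both control arrays in non-tumour mucosa and lower on both in tumours. In tumours the difference did not pass the test (-0.44, 95% interval -1.23 to 0.34, limma adjusted p = 0.784), and the nearest arrays of the 2 tumour groups were 0.063 apart. The difference in tumours minus that in mucosa was -1.32 on the log2 scale. This difference between the tissues was not tested, because the mucosa difference is the value that chose the gene.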

How the results depend on the processing

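The tumour differences of Ifitm1, Ifitm2 and Ifitm3 kept their direction and their call in 17 of 17 alternatives, with ranges of 2.12 to 2.38, 2.09 to 2.46 and 2.05 to 2.22. Not all of these could differ: for this contrast the fit on only the groups compared repeats the main fit. Each gene also has 1 probe set, so averaging probe sets or using all of them leaves its difference unchanged. Ifitm6 kept its direction, but its call was lost with no filter on low values (0.89, limma adjusted p = 0.0609) and in 5 of 8 fits that left out 1 array. Over all 8 of those fits it ran from 0.72 to 1.06, with limma adjusted p from 0.0228 to 0.0743. Ifitm6 did not pass the 60th percentile filter, so that alternative gives it no value. For HAI-1 loss in tumours none of the 4 genes was called in any alternative. Ifitm2 turned positive with a spike-in term (0.069) and ran from -0.54 to 0.19 when 1 array was left out, and Ifitm3 ran from -0.30 to 0.051. The count of genes called for HAI-1 loss in tumours was 0 to 7 when 1 array was left out and 0 in the other alternatives.

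The count called for HAI-1 loss in mucosa moved from 138 to 46 with quantile normalization, 0 with no filter, 331 at the 60th percentile, 370 once the variance followed a trend with the mean, 86 after averaging a gene's probe sets, 19 over all probe sets, 46 with only the groups compared and 0 to 219 when 1 array was left out. The mucosa differences of the 4 genes ranged over 1.998 to 2.33 for Ifitm1, 1.65 to 2.03 for Ifitm2, 1.57 to 1.86 for Ifitm3 and 0.54 to 1.22 for Ifitm6. The causes of these changes were not tested.

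The labels do not say whether replicate numbers pair the samples, and the main fit assumed no pairing. The deviations of equal numbers correlated at -0.138 to 0.22 over 6 pairs of groups, with 2 over 0.1. With 2 arrays in each group these values cannot decide whether samples were paired. With the replicate number as a block, the count for HAI-1 loss in mucosa was 84, that for HAI-1 loss in tumours 0 and that for tumours 4559 against 4697 without the block, and no call of the 4 genes changed.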
